A study of Arabidopsis thaliana with 12 samples.

Results

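The 10 genes described here are WRKY18 (AT4G31800), WRKY33 (AT2G38470), WRKY38 (AT5G22570), WRKY40 (AT1G80840), WRKY46 (AT2G46400), WRKY53 (AT4G23810), WRKY54 (AT2G40750), WRKY62 (AT5G01900), WRKY70 (AT3G56400) and WRKY75 (AT5G13080) of Arabidopsis thaliana. They were chosen by gene identifier as WRKY transcription factor genes known from stress and defence, and are 10 of 32833 genes counted. These members, and the gene lists set beside them below, were chosen with earlier results of these data known, so counts within them are descriptions. The reference annotation names 72 counted genes WRKY, so 62 other family members stand beside them. RNA was sequenced from tissue labelled as seedling, 12 days after germination, grown on soil in long days. The 12 libraries form 4 groups of 3. The fas2-4 group carries an allele of FAS2, a subunit of the histone chaperone CAF-1, and was set against its own Columbia-0 (Col-0) wild type in experiment 2. The hira-1 group carries an allele of HIRA, another histone chaperone gene, and was set against a separate Col-0 group in experiment 1. Experiments 1 and 2 are names used here for what the labels call Group1 and Group2. In every group the labels give stratification for 4 days at 4 °C and growth at 21 °C. No other treatment is named. Each gene is represented by 1 allele. The labels do not say how many seedlings made a library or whether replicates were grown apart, so the p-values measure the spread between these libraries, which may be technical.

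WRKY proteins bind DNA at the W-box, whose core is TTGAC, through a domain with the amino acid signature that gives the family its name. Many are transcribed within minutes of pathogen perception or wounding, several respond to the defence hormone salicylic acid, and WRKY proteins bind the promoters of other WRKY genes. By structure, WRKY33 belongs to group I, WRKY18 and WRKY40 to group IIa, WRKY75 to group IIc, and WRKY38, WRKY46, WRKY53, WRKY54, WRKY62 and WRKY70 to group III.

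The 250 bases before the annotated gene start of 6 members are printed because these genes carry the contrasts that follow. They are WRKY46, WRKY38 and WRKY75, which rose in fas2-4, WRKY62 and WRKY70, which differed between the wild-type sets, and WRKY54, whose change in fas2-4 was the smallest of the 10. Coordinates and sequence are from the TAIR10.1 assembly of RefSeq, each sequence reads 5′ to 3′ on the gene's own strand, and capitals mark TTGAC or, for a core on the opposite strand, GTCAA.
WRKY46, chr2:19044956-19045205, minus strand: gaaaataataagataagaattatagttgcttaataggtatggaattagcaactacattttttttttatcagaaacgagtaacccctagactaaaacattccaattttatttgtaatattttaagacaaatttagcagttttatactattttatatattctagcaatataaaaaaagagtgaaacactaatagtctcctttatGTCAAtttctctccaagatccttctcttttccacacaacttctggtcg
WRKY38, chr5:7496991-7497240, minus strand: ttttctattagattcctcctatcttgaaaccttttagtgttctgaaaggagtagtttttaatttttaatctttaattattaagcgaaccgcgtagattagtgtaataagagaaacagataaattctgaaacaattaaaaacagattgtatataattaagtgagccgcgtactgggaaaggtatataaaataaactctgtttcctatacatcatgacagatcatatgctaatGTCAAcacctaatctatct
WRKY75, chr5:4151202-4151451, minus strand: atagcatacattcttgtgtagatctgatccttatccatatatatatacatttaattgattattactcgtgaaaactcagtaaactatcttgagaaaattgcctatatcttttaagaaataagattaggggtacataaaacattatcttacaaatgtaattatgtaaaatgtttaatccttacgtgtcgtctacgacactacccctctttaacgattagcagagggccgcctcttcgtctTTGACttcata
WRKY62, chr5:352096-352345, minus strand: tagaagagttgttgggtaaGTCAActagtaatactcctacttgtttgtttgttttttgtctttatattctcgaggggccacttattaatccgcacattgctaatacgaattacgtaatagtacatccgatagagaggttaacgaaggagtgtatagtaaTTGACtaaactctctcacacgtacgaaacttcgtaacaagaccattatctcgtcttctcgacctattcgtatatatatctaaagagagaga
WRKY70, chr3:20910624-20910873, minus strand: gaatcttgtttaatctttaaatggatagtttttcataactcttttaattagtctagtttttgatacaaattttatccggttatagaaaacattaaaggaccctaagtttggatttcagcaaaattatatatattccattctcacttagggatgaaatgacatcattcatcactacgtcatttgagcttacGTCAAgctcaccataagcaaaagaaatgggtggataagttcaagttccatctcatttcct
WRKY54, chr2:17002529-17002778, minus strand: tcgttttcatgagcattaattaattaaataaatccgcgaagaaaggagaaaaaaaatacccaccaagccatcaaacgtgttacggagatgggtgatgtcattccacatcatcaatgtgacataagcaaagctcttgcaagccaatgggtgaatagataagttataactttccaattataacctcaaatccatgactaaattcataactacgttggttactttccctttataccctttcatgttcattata

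The core was found on either strand in 8 of the 10 windows, and WRKY33, WRKY53 and WRKY62 had 2 cores each. Over 27443 protein-coding genes, 44.9% of windows of the same length held a core and 14.1% held at least 2. WRKY18 and WRKY54 held none in this window. The base of the core nearest to the gene start lay 7 bases before it in WRKY75, 15 bases before it in WRKY38 and 44 bases before it in WRKY46. The WRKY62 window held TTGACT 2 times, a form found at least 1 time in 19.1% of all windows. The WRKY53 window held TTGACC 2 times, a form found at least 1 time in 12.2%. Shares of windows with at least 2 matches were counted for TTGAC alone. The core of TGA factor sites, TGACG, was found 2 times in WRKY70 and once in WRKY40, against 18.6% of all windows with at least 1. In WRKY70, 1 of these overlaps the printed capitals. These matches describe letters and not occupied sites.

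Levels are given as the deposited TMM-scaled TPM, a value corrected for gene length and library, so that genes can be compared. Fold changes and tests come from the read counts, with edgeR's quasi-likelihood test and Benjamini-Hochberg adjustment over all genes tested. A gene is called, and said to rise or fall, at an adjusted p under 0.05. Total counts were 39258873 to 39510509 per library in experiment 2 and 20700171 to 21902258 in experiment 1. HIRA was not called in the libraries labelled hira-1. There it had 235, 286 and 454 counts, against 223, 300 and 203 in Col-0 (log2 fold change +0.56, SE 0.30, adjusted p = 0.198). That group is named by its label throughout. FAS2 had 197, 207 and 281 counts in fas2-4, against 273, 286 and 253 in Col-0, and was not called either (-0.40, SE 0.16, adjusted p = 0.156). A count per gene does not show whether an allele is present, so these values settle neither genotype. Although the tissue is labelled as seedling, the 7 markers of root cells summed to 0.361 to 0.782 CPM (counts scaled to library size) per library, and 2 to 5 of them were at 0 in each. The 6 markers of green leaf cells were abundant in every library. Fold changes also followed exon length in some libraries. The slope, in log2 units per doubling of exon length, ran from -0.562 in replicate 3 labelled hira-1 to 0.431 in Col-0 replicate 2 of experiment 1, and from -0.311 in fas2-4 replicate 1 to 0.13 in fas2-4 replicate 3.

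Within the set, WRKY70 was the most abundant transcript in all 4 groups. It averaged 134 ± 27 in fas2-4, against 88.1 ± 18 in the Col-0 libraries of experiment 2, and 107 ± 7.3 in hira-1-labelled and 140.2 ± 56 in Col-0 libraries of experiment 1 (SD, n = 3 each). In every group its lowest library lay above the highest library of any other member. WRKY18, WRKY33, WRKY46, WRKY53 and WRKY54 formed a middle range in fas2-4, with means of 15.5 to 21.7 whose libraries overlapped. WRKY40 followed at 8.22 ± 2.6 in fas2-4, against 4.49 ± 1.0 in its Col-0. WRKY38, WRKY75 and WRKY62 were lowest in both groups of that experiment, with means of 6.56, 5.58 and 2.66 in fas2-4, against 1.49, 1.24 and 1.29 in its Col-0. In experiment 1, WRKY62 was close to undetected, with 8, 13 and 15 counts in the libraries labelled hira-1, against 0, 5 and 5 in Col-0.

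**Figure D1:**
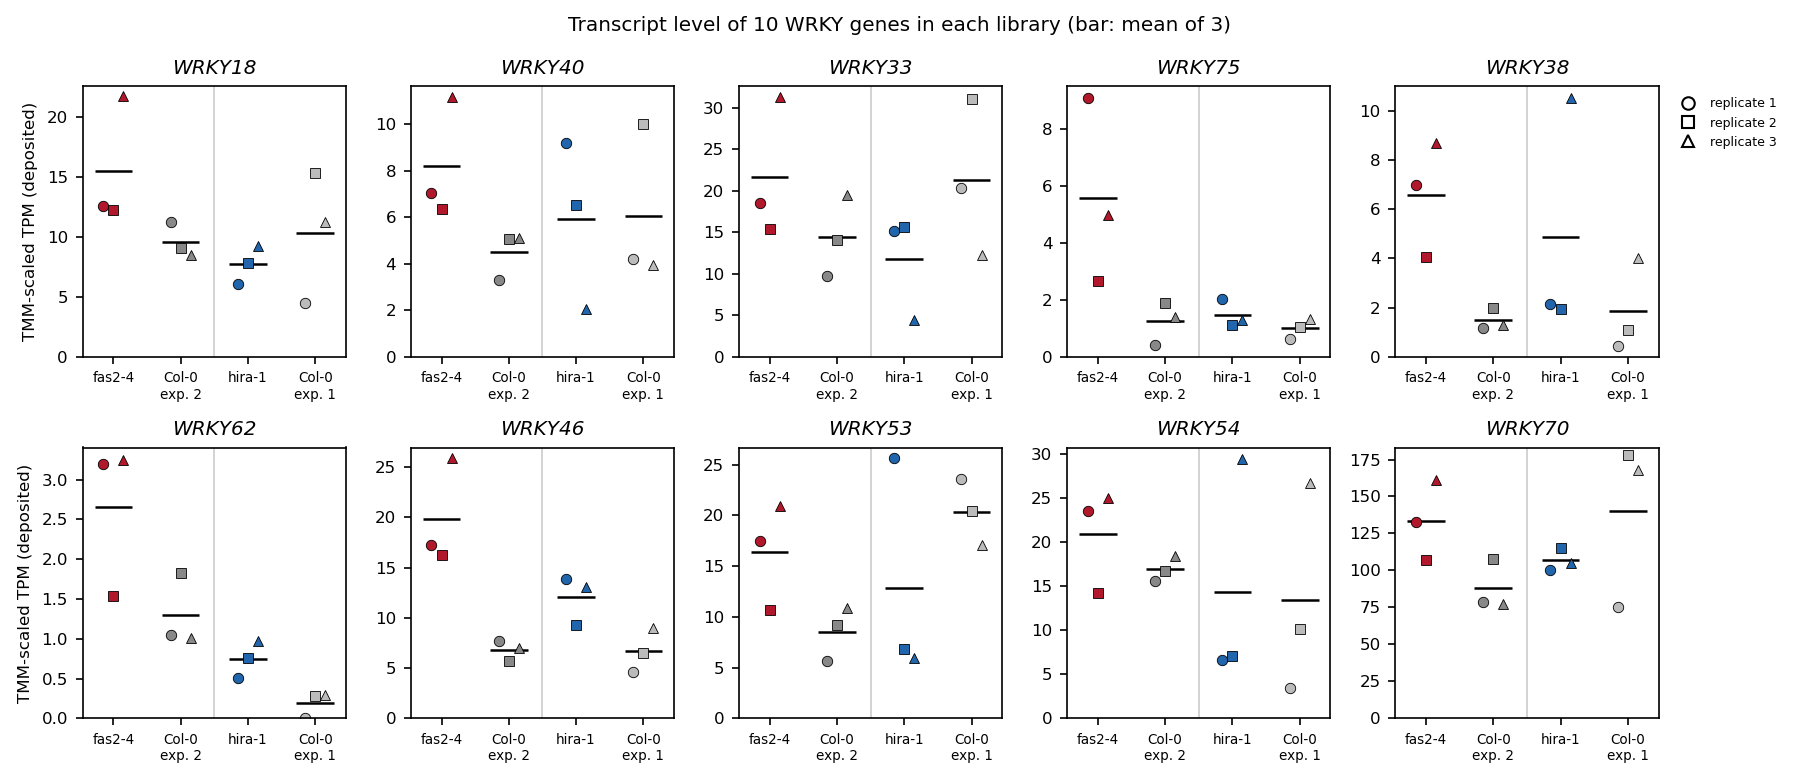
Level of each WRKY gene (TMM-scaled TPM, linear axes that differ between panels) in the 12 libraries. Points are libraries, shapes mark the replicate number, bars are means of 3, and a line separates the experiments. WRKY46, WRKY38 and WRKY75 show all 3 fas2-4 libraries above their Col-0 libraries, and fas2-4 replicate 2 is the lowest of its group in every panel.

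In fas2-4 seedlings every WRKY gene of the set had a higher mean than in Col-0, and WRKY46, WRKY38 and WRKY75 passed the test. Of the 10 members, 3 rose, 0 fell and 7 were not called. Among the 20004 genes tested, 9.74% were called, 6.78% higher and 2.96% lower. All 10 members had a positive log2 fold change, with a median of +0.90, where the median of all genes tested was +0.03, and 8 had an unadjusted p under 0.05. The 3 fas2-4 libraries lay above all 3 Col-0 libraries in CPM for 5 members and below them for 0. Of all genes tested, 31.7% had groups that did not overlap, 17.5% higher and 14.2% lower in fas2-4. In these bulk libraries, fewer cells of a type and less RNA per cell cannot be told apart.

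WRKY46, a group III factor induced by salicylic acid and acting in basal resistance, had the most stable rise. Its level was 17.3, 16.3 and 25.9 in fas2-4, against 7.7, 5.66 and 7.03 in Col-0. The lowest fas2-4 library was above the highest Col-0 library by more than the whole range of Col-0. The log2 fold change was +1.54 (SE 0.21, adjusted p = 0.00364), and all 6 fits that each omitted a library kept the call.

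WRKY38 and WRKY62 encode closely related group III proteins that interact with the histone deacetylase HDA19 and act as negative regulators of basal defence. WRKY38 had 6.97, 4.04 and 8.68 in fas2-4, against 1.16, 2.0 and 1.31 in Col-0. All fas2-4 libraries were higher, without overlap. The log2 fold change was +2.14 (SE 0.32, adjusted p = 0.00555), and without Col-0 replicate 3 the adjusted p was 0.0529. In the fit of all 12 libraries it was +2.11 (adjusted p = 0.105) and no longer called. WRKY62 had 3.2, 1.54 and 3.24 in fas2-4, against 1.05, 1.82 and 1.01 in Col-0. Replicate 2 overlapped the Col-0 libraries, and the fold change of +1.04 (SE 0.36) was not called (adjusted p = 0.107). HDA19 itself had -0.05 in fas2-4 (SE 0.14, adjusted p = 0.89).

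WRKY75, a group IIc factor known from phosphate starvation and from the onset of leaf senescence, had the highest fold change and the widest spread. Its level was 9.07, 2.67 and 4.98 in fas2-4, against 0.421, 1.9 and 1.41 in Col-0. The groups did not overlap, although replicate 1 of fas2-4 was more than 3 times replicate 2. The log2 fold change was +2.17 (SE 0.55, adjusted p = 0.0429). With 1 library left out the call held in 1 of 6 fits, the one without fas2-4 replicate 2, and the adjusted p ranged from 0.0143 to 0.156.

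WRKY18 and WRKY40 encode group IIa proteins that form dimers with each other and with WRKY60 and overlap in function in pathogen responses. WRKY18 had 12.6, 12.2 and 21.7 in fas2-4, against 11.2, 9.04 and 8.47 in Col-0. WRKY40 had 7.07, 6.35 and 11.2 in fas2-4, against 3.32, 5.07 and 5.1 in Col-0. Both were higher in all fas2-4 libraries than in any Col-0 library, with log2 fold changes of +0.68 (SE 0.23, adjusted p = 0.102) and +0.87 (SE 0.25, adjusted p = 0.0669), and neither was called. WRKY60, their partner and not a member of the set, was called. It had 17.6, 13.5 and 18.0 in fas2-4, against 4.38, 6.64 and 5.07 in Col-0, which gave +1.61 on the log2 scale (SE 0.19, adjusted p = 0.00227).

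WRKY33 encodes a group I substrate of the MAP kinases MPK3 and MPK6 that is needed for resistance to necrotrophic fungi and activates camalexin synthesis genes such as PAD3. It had 18.5, 15.4 and 31.3 in fas2-4, against 9.7, 14.1 and 19.5 in Col-0. The ranges overlapped, and the log2 fold change of +0.59 (SE 0.30) was not called (adjusted p = 0.265). PAD3, which encodes the enzyme of the last step of camalexin synthesis, rose. It had 47.9, 21.2 and 38.2 in fas2-4, against 8.49, 9.0 and 4.39 in Col-0 (+2.29, SE 0.35, adjusted p = 0.00565). MPK3 and MPK6 were not called, at +0.08 (SE 0.14, adjusted p = 0.78) and -0.08 (SE 0.11, adjusted p = 0.729).

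WRKY53, WRKY54 and WRKY70 are group III genes of salicylic acid signalling and leaf ageing. WRKY53 promotes senescence, WRKY54 and WRKY70 act together against it, and WRKY70 also balances salicylic acid against jasmonate responses. WRKY53 had 17.5, 10.7 and 20.9 in fas2-4, against 5.61, 9.16 and 10.9 in Col-0. WRKY70 had 133, 107 and 161 in fas2-4, against 78.9, 108 and 76.98 in Col-0. In both genes 1 Col-0 library overlapped the lowest fas2-4 library, replicate 2. The log2 fold changes were +0.94 (SE 0.29, adjusted p = 0.0767) for WRKY53 and +0.60 (SE 0.19, adjusted p = 0.0819) for WRKY70. WRKY54 had 23.5, 14.2 and 25.01 in fas2-4, against 15.6, 16.7 and 18.4 in Col-0. Its replicate 2 in fas2-4 lay below every Col-0 library, and its +0.30 (SE 0.21, adjusted p = 0.416) was the smallest change of the set.

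The 10 genes shared much of their order of libraries within fas2-4. Replicate 2 was the lowest fas2-4 library for all 10 members, and replicate 3 was the highest for 9 in TMM-scaled TPM, with replicate 1 highest for WRKY75. The share of all genes with the same order was not counted, so the order cannot be called particular to the members. Without replicate 2, 7 members were called in place of 3, while the share of all genes called was 7.19%. DESeq2 on the same counts also called 7, adding WRKY18, WRKY40, WRKY53 and WRKY70, and called 14.9% of all genes. Without fas2-4 replicate 1, 3 members were called, WRKY38, WRKY40 and WRKY46, in a fit that called 5661 of 20198 genes. Without Col-0 replicate 3, WRKY46 was the single member called, and 3.17% of all genes were. Against a minimum change of 2-fold, 0 members and 0.79% of genes were called. In a fit that held all 12 libraries, WRKY46 and WRKY75 were called, with 5.54% of genes. The green leaf markers moved the opposite way to the WRKY genes. Their sum was 42285 to 46154 CPM in fas2-4, against 59621 to 67940.1 CPM in Col-0, with all 6 lower in every fas2-4 library and 2 called, and their part in the result was not tested.

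**Figure D2:**
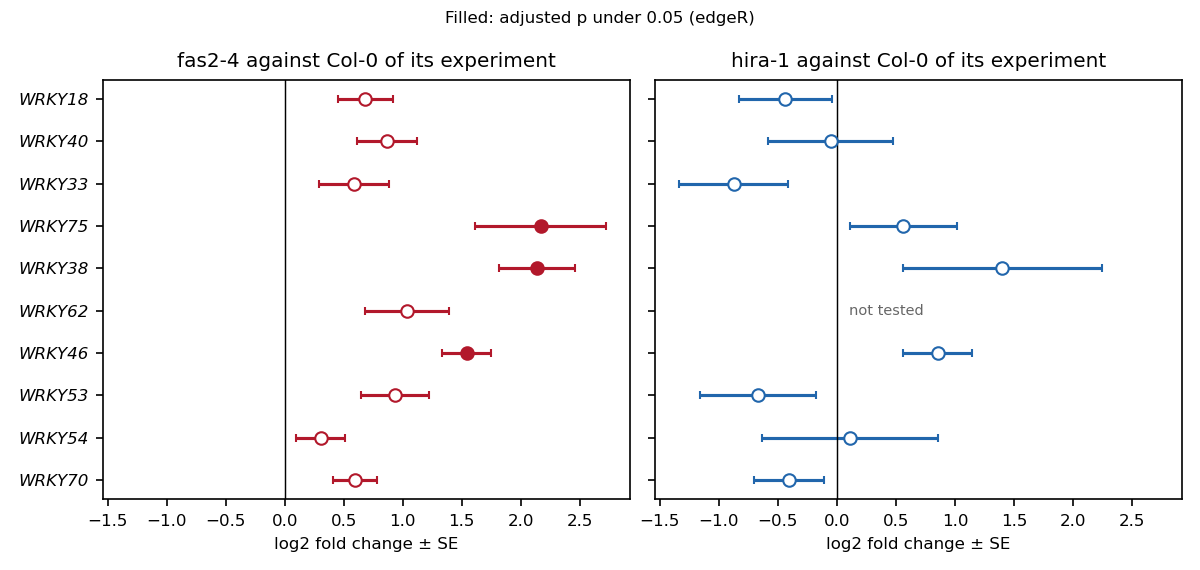
Log2 fold change of each member, with its SE, in fas2-4 against Col-0 of experiment 2 (left) and in libraries labelled hira-1 against Col-0 of experiment 1 (right). Filled points passed an adjusted p of 0.05. All 10 points on the left lie above 0, while 4 of the 9 on the right do, and WRKY62 was too low to be tested there.

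In the libraries labelled hira-1, no member was called by the unblocked test. Of the 9 members tested, 0 rose and 0 fell, 1 passed at an unadjusted p under 0.05, and WRKY46 was the 1 member that DESeq2 called. Among the 18739 genes tested, edgeR called 13.7%, 6.94% higher and 6.8% lower, and DESeq2 called 24%. The members' median log2 fold change was -0.05, against -0.02 over all genes, and 4 of 9 were positive. The same replicate numbers deviated together in this experiment, so a fit with the replicate number as a block is given beside the values. This pairing is read from the data and is not in the labels. That fit called 51.2% of all genes tested and 3 of the 9 members. With an exon length correction added it called 38.4% of genes and the same 3 members.

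WRKY46 was higher in this mutant-labelled group too. It had 13.9, 9.34 and 13.1, against 4.57, 6.55 and 8.98 in Col-0. The groups did not overlap, which held for 38.6% of genes tested, 19.4% higher and 19.2% lower. The log2 fold change was +0.85 (SE 0.30, adjusted p = 0.0769), and with the block it was +0.87 (adjusted p = 0.00179). With block and length correction together it was +0.66 (adjusted p = 0.0188). Without the block, WRKY46 was called when Col-0 replicate 3 or the mutant-labelled replicate 2 was omitted, and WRKY38 when Col-0 replicate 3 was omitted. Those fits called 18.7% of genes without the Col-0 library and 26.4% without the mutant-labelled one.

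WRKY38 had 2.15, 1.95 and 10.5 in the libraries labelled hira-1, against 0.435, 1.1 and 4.03 in Col-0. Replicate 3 was the highest in both groups, and each mutant-labelled library was above the Col-0 library of the same number. The log2 fold change was +1.40 (SE 0.84, adjusted p = 0.251), and with the block it was +1.41 (adjusted p = 0.00024). WRKY62 was below the count filter. Without the filter its fold change was +1.92 (adjusted p = 0.131).

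WRKY33 had 15.2, 15.7 and 4.4 in the libraries labelled hira-1, against 20.4, 31.1 and 12.3 in Col-0. It was lower than the same-numbered Col-0 library in all 3 pairs, with replicate 3 lowest in both groups. The log2 fold change was -0.87 (SE 0.46, adjusted p = 0.198), and with the block it was -0.94 (adjusted p = 0.000181). In fas2-4 the same gene had +0.59, and the difference of the effects is given below with the other members.

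The other members were not called in the libraries labelled hira-1 with or without the block. WRKY53 had 25.7, 6.88 and 5.9, against 23.6, 20.4 and 17.1 in Col-0, so that replicate 1 lay above and the other libraries below the Col-0 range (-0.67, SE 0.50, adjusted p = 0.346). WRKY54 had 6.56, 7.05 and 29.4, against 3.4, 10.1 and 26.7 in Col-0. Its replicate 3 stood highest in both groups, and the log2 fold change was +0.11 (SE 0.75, adjusted p = 0.924). WRKY70 had 100.2, 115 and 105, against 75.3, 178 and 168 in Col-0 (-0.41, SE 0.30, adjusted p = 0.338). WRKY18 had 6.06, 7.8 and 9.23, against 4.52, 15.3 and 11.2 in Col-0 (-0.44, SE 0.40, adjusted p = 0.438). In both genes the mutant-labelled libraries lay within the Col-0 range. WRKY40 had 9.21, 6.52 and 2.07, against 4.19, 10.04 and 3.97 in Col-0 (-0.05, SE 0.53, adjusted p = 0.949). WRKY75 had 2.03, 1.1 and 1.3, against 0.624, 1.04 and 1.32 in Col-0 (+0.56, SE 0.46, adjusted p = 0.386), and the ranges of both genes overlapped.

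The difference between the fas2-4 and the hira-1-labelled effects was tested over all 12 libraries. Without a block none of the 10 members was called by edgeR or DESeq2 and 4 had an unadjusted p under 0.05. Of the 20152 genes tested edgeR called 11.6%, 5.84% higher and 5.73% lower, and DESeq2 called 20.7%. The difference was positive for 9 members, with a median of +0.94, against +0.06 over all genes. WRKY53 differed by +1.59 (SE 0.66, adjusted p = 0.117), WRKY33 by +1.43 (SE 0.63, adjusted p = 0.138), WRKY18 by +1.11 (SE 0.50, adjusted p = 0.146) and WRKY70 by +0.99 (SE 0.38, adjusted p = 0.0987). These 4 are the ones with an unadjusted p under 0.05. WRKY75 had +1.59 (SE 0.80, adjusted p = 0.181), WRKY46 had +0.68 (SE 0.37, adjusted p = 0.215), and WRKY62 alone was negative, at -0.92 (SE 0.81, adjusted p = 0.442). Leaving out 1 library gave calls in 2 of 12 fits, for WRKY18 and WRKY70 without Col-0 replicate 1 of experiment 1, and for WRKY53 without replicate 1 labelled hira-1. Those fits called 3.48% and 8.41% of genes, in that order.

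Since same-numbered libraries of experiment 1 deviated together, the difference was also fitted with the number as a block, a choice made after seeing the data. No label states that the numbers pair libraries, so the adjusted p values with the block depend on that reading. With the block in experiment 1, 31.7% of genes and 3 members were called, all with a positive difference of effects. WRKY33 had +1.52 (adjusted p = 0.0159), WRKY53 had +1.89 (adjusted p = 0.0137) and WRKY70 had +0.89 (adjusted p = 0.0459). With a block in each experiment, 32.1% of genes and 2 members were called, WRKY33 at +1.51 (adjusted p = 0.00543) and WRKY53 at +1.88 (adjusted p = 0.0256), while WRKY70 had +0.89 (adjusted p = 0.077). The members' share, 3 or 2 of 10, was at or below that of all genes.

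The wild-type groups differed from each other in 3 members. Between Col-0 of experiment 2 and Col-0 of experiment 1, WRKY62 was higher and WRKY53 and WRKY70 were lower, where 24.4% of the 20152 genes tested were called, 11.2% higher and 13.2% lower. Groups did not overlap for 49.9% of all genes, 25.1% higher and 24.8% lower. WRKY53 had 5.61, 9.16 and 10.9 in Col-0 of experiment 2, against 23.6, 20.4 and 17.1 in Col-0 of experiment 1, without overlap (-1.58, SE 0.47, adjusted p = 0.0277). WRKY70 had -0.99 (SE 0.27, adjusted p = 0.0186) with overlapping libraries. WRKY62 had 1.05, 1.82 and 1.01, against 0.0, 0.276 and 0.289, which gave +2.42 (SE 0.62, adjusted p = 0.0138). Omitting 1 library kept the call of WRKY62 in 5 of 6 fits, lost without Col-0 replicate 2 of experiment 2. WRKY70 kept it in 2 of 6, those without Col-0 replicate 1 of experiment 1 or replicate 2 of experiment 2. WRKY53 kept it in 1 of 6, the fit without Col-0 replicate 3 of experiment 1. The fas2-4 mean was above both wild-type means for 7 members when all 12 libraries were scaled together. For WRKY33, WRKY53 and WRKY70 it lay between them, so their values in fas2-4 were within the span of the wild-type groups. Experiment and sequencing depth cannot be told apart from the wild-type difference.

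The members also moved differently together in the experiments. Over the 6 libraries of experiment 2, all 45 pairs of members had a positive Pearson correlation of log2(CPM + 1), with a median of 0.79 and a range of 0.52 to 0.97. Over the 6 libraries of experiment 1, 31 of 45 were positive, with a median of 0.16 and a range of -0.92 to 0.94. WRKY33 and WRKY38 had r = -0.92 there, against 0.72 in experiment 2. Replicate 3 was lowest for WRKY33, WRKY40 and WRKY53 in both groups of experiment 1. It was the highest of both groups for WRKY38 and WRKY54. For WRKY62, close to undetected there, Col-0 replicates 2 and 3 had 5 counts each, so their order rests on library scaling. The points share their libraries, and the experiment 2 values include the shift between fas2-4 and Col-0, so the correlations are descriptions with no test.

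**Figure D3:**
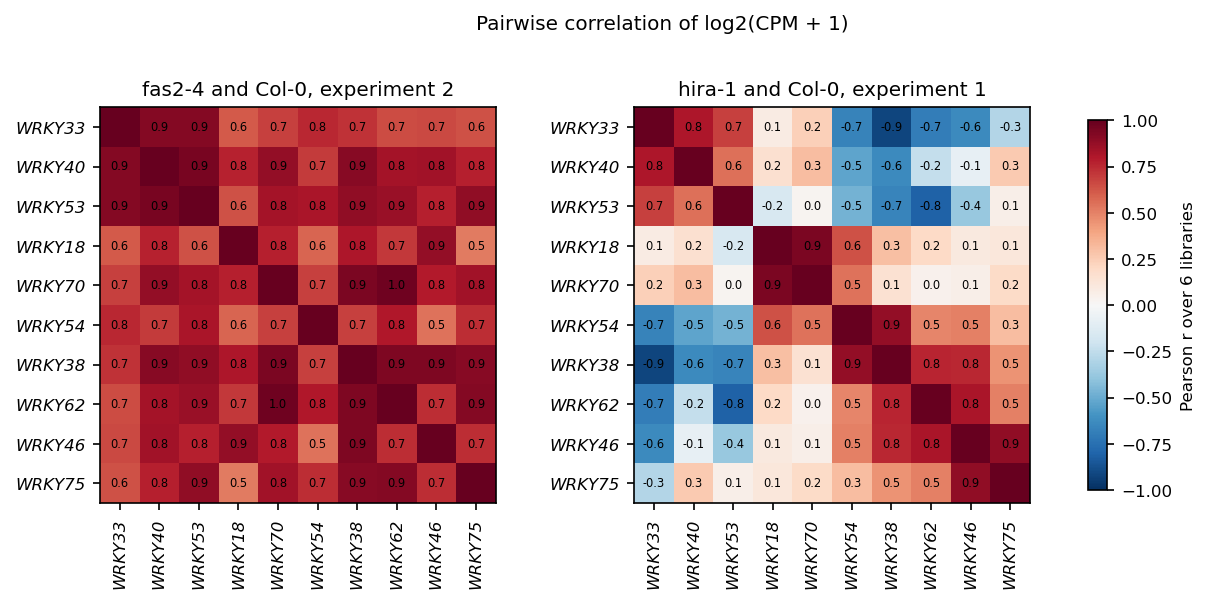
Pairwise Pearson correlation of log2(CPM + 1) between the 10 members over 6 libraries of experiment 2 (left, fas2-4 and Col-0) and over 6 libraries of experiment 1 (right, libraries labelled hira-1 and Col-0). All 45 pairs are positive on the left, and 31 of 45 on the right, where WRKY33, WRKY40 and WRKY53 run against WRKY38 and WRKY62. WRKY62 had only 0 to 15 counts in the libraries on the right.

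The genes whose pattern was most like the mean of the members over the 12 libraries, after centring each experiment, were CRK36 (r = 0.966), AT3G60415 (0.93), AT3G48630 (0.925), BAP1 (0.918) and AT2G32140 (0.901). CRK36 encodes a cysteine-rich receptor-like kinase and BAP1 a membrane-associated inhibitor of cell death. The mean of the members was itself higher in every fas2-4 library than in Col-0 of experiment 2, and overlapped between the groups of experiment 1. A rise in fas2-4 and little change in experiment 1 are thus built into the choice, and the values that follow are descriptions. In fas2-4, CRK36 had +1.57 (adjusted p = 0.00317) and BAP1 +2.04 (adjusted p = 0.00631). In hira-1-labelled libraries they had +0.10 (adjusted p = 0.855) and +0.27 (adjusted p = 0.743).

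Among the other WRKY genes, several also rose in fas2-4. Of 62 other family members 48 were tested, and 13 rose, 0 fell and 35 were not called, with a median of +0.38. The share called was 27.1%, against 9.74% of all genes tested. The largest rises were those of WRKY50 (+1.83, adjusted p = 0.00211), WRKY63 (+1.81, adjusted p = 0.0359), WRKY31 (+1.77, adjusted p = 0.0485), WRKY60 and WRKY55 (+1.35, adjusted p = 0.0458). The count was 7 to 8 without fas2-4 replicate 3 or any 1 of the Col-0 libraries. Without fas2-4 replicate 1 it was 20, in a fit that called 5661 of 20198 genes. For the mutant-labelled group of experiment 1, 1 of 41 rose and 2 fell, with a median of -0.16. The share called was 7.32%, against 13.7% of all genes tested. WRKY23 rose by 1.11, WRKY1 had -1.35 and WRKY19 had -1.41. The block gave 17 calls, in a fit that called 51.2% of all genes. In the difference between the mutants' effects, 11.6% of all genes tested were called. Of 47 other WRKY genes, 10 were called with a positive difference and 0 with a negative one. That count was 2 to 13 with 1 library left out. It was 2 or 3 without any 1 Col-0 library of experiment 2, without fas2-4 replicate 2 or 3, or without Col-0 replicate 1 or 2 of experiment 1. It was 4 without replicate 1 labelled hira-1 and 6 without its replicate 3. WRKY26 had +2.59 (SE 0.71, adjusted p = 0.0372) and WRKY60 had +1.58 (SE 0.45, adjusted p = 0.0408).

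Of the 22 salicylic acid genes, 14 rose and 0 fell in fas2-4, with a median of +0.97. The share called was 63.6%, against 9.74% of all genes tested. The count was 7 to 9 without fas2-4 replicate 3 or any 1 of the Col-0 libraries. ICS1, which encodes isochorismate synthase, had 33.4, 24.4 and 31.5 in fas2-4, against 13.1, 12.1 and 12.1 in Col-0 (+1.26, SE 0.14, adjusted p = 0.00203). SARD1, a transcription factor that drives ICS1, had +1.44 (adjusted p = 0.00433), EDS1, a lipase-like immune regulator, had +0.80 (adjusted p = 0.0229) and the marker PR1 had +2.37 (adjusted p = 0.00461). Like the WRKY members, PR1 was lowest in fas2-4 replicate 2, at 1458, 559 and 1097 in fas2-4, against 147, 225 and 233 in Col-0. In the libraries labelled hira-1, where 13.7% of all genes tested were called, 0 of 22 rose and 1 fell, EDS1 (-0.77, SE 0.20, adjusted p = 0.0381). The block, which called 51.2% of all genes tested, gave 4 calls in this list. The difference between the mutants' effects was called for 9 of 22, all positive, against 11.6% of all genes tested. Without fas2-4 replicate 3 the count was 5. Those called in the main fit included EDS1 (+1.54, adjusted p = 0.00688) and ICS1 (+1.51, adjusted p = 0.0069).

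Targets, partners and stress lists around the WRKY factors were counted in the same way in fas2-4. Of all genes tested there, edgeR called 9.74% and DESeq2 called 14.9%. Of 12 genes of camalexin, indole glucosinolate and ethylene synthesis 3 rose, PAD3, CYP71A13 (+2.01, adjusted p = 0.0148) and GSTF6 (+1.88, adjusted p = 0.00213), with a median of +0.29. Of 12 tested genes of pattern-triggered immunity, NHL10 (+2.04, adjusted p = 0.00797) and FRK1, a flagellin-responsive kinase gene (+1.40, adjusted p = 0.036), rose, and the median was -0.01. In that list all fas2-4 libraries lay above all Col-0 libraries for 2 genes and below them for 4. Over all genes tested the shares were 17.5% and 14.2%. Of 12 MAP kinase and WRKY partner genes edgeR called 0 and DESeq2 called 1, while 2 were below an unadjusted p of 0.05. Of 12 tested genes of the rapid touch response ZAT12 rose (+1.15, adjusted p = 0.0157), a share of 8.33%, below that of all genes. Among 6 tested senescence genes SAG13 (+2.08, adjusted p = 0.0114) and SGR1 (+0.49, adjusted p = 0.0262) rose. SAG12, the classical senescence marker, was not tested and reached at most 135 counts, in 1 Col-0 library. Of the 4 phosphate starvation genes SPX1 fell (-0.96, adjusted p = 0.049), while WRKY75 rose.

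In the libraries labelled hira-1, where edgeR called 13.7% of all genes tested and DESeq2 called 24%, the same lists gave few calls. The pattern-triggered immunity genes WAK1 (-1.11, adjusted p = 0.0175) and PEPR1 (-1.56, adjusted p = 0.0328) fell, of 10 tested, and the senescence gene SAG29 rose (+1.12, adjusted p = 0.0413), of 6. By edgeR 0 of 10 camalexin and related genes, 0 of 11 touch response genes and 0 of 12 MAP kinase and partner genes were called. At an unadjusted p under 0.05 the counts were 1, 0 and 1, and DESeq2 called 1, 0 and 0. With the block, which called 51.2% of all genes tested, the calls were 7 for pattern-triggered immunity and 4 for senescence. For the other lists they were 2, 1 and 3, in that order.

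**Figure D4:**
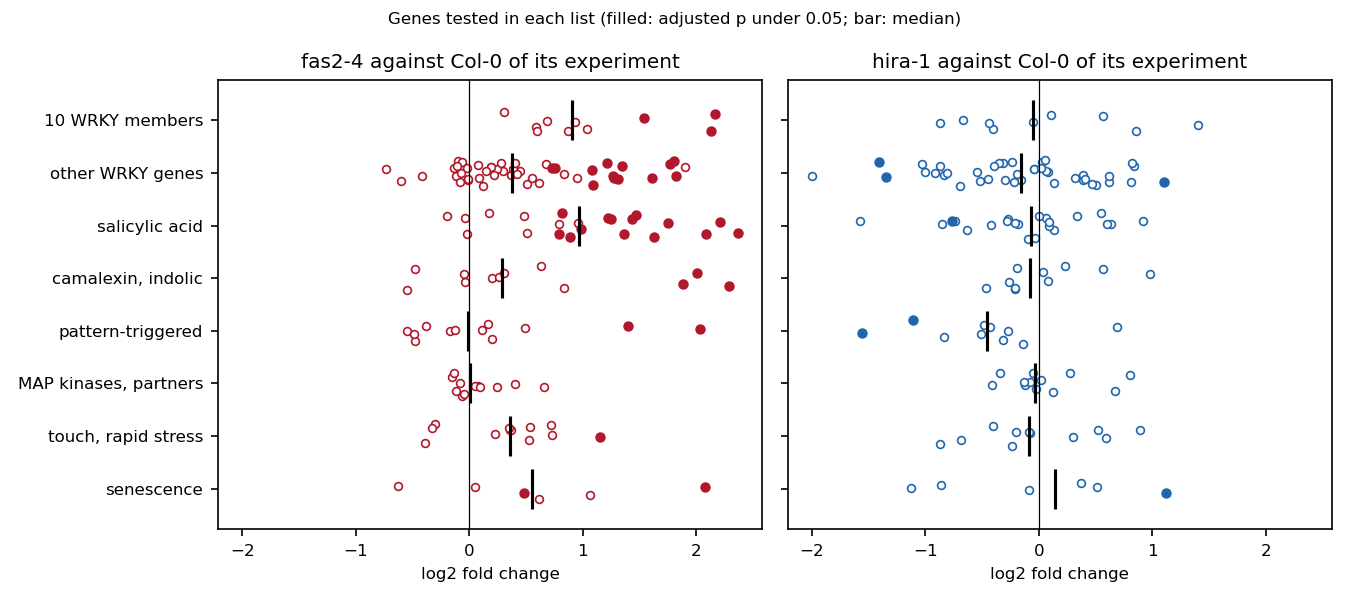
Log2 fold change of every tested gene of 8 groups in fas2-4 against Col-0 of experiment 2 (left) and in libraries labelled hira-1 against Col-0 of experiment 1 (right). Filled points passed an adjusted p of 0.05 and bars are medians. On the left the medians of the 10 members (+0.90) and of the salicylic acid genes (+0.97) lie farthest right, and on the right the medians lie between -0.45 and +0.14.

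Annotated models of 3 members overlap another counted gene, and since the use of strand in counting was not given in the sources used here, their reads and those of the neighbour cannot be told apart. WRKY33 (chromosome 2, 16108235 to 16110766, plus strand) overlaps AT2G38480 and AT2G08965. AT2G38480 had -0.77 in fas2-4 and was called in hira-1-labelled libraries (+0.86, adjusted p = 0.047). These signs are opposite to those of WRKY33 in both comparisons, and AT2G38480 was lower in the difference of the effects too (-1.64, SE 0.39, adjusted p = 0.0227). WRKY53 overlaps AT4G23800, which had +0.27 in fas2-4 and -1.14 in the libraries labelled hira-1, neither called. Between the wild-type groups AT4G23800 had 24.6 ± 1.4 CPM in Col-0 of experiment 2, against 3.99 ± 2.2 CPM in Col-0 of experiment 1 (SD, n = 3 each, 12-library scaling). It was called there (+2.62, SE 0.40, adjusted p = 0.000622), with a sign opposite to the -1.58 of WRKY53. WRKY40 overlaps AT1G80850, which was called between the wild-type groups (-0.84, SE 0.17, adjusted p = 0.00392) and in neither mutant comparison. The other 7 members overlap no counted gene.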

How the data were processed

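Total RNA of tissue labelled as seedling was sequenced in 12 libraries. Per the submitters' processing notes, fastp 0.23.4 and HISAT2 2.2.1 were used with TAIR10. The counting program, annotation and use of strand are not given in the sources used here. For each experiment the authors deposited read counts per gene and TMM-scaled TPM, which is handled as a score per gene because library factors change the TPM total. All 24 value columns were used. Counts were filtered with filterByExpr, TMM-scaled, and compared by edgeR 4.0.16 under R 4.3.3 (robust glmQLFit, glmQLFTest, 2-sided), within each experiment for a mutant and over 12 libraries for the difference and the wild-type groups. SE was derived from the log2 fold change and F statistic (absolute value over the root of F). CPM uses TMM-scaled library sizes. The fits were tested on simulated data. Alternatives were RLE scaling, no filter, DESeq2 1.42.0, a 2-fold minimum, exon length correction, a replicate block (for the difference of effects added after seeing the data), all 12 libraries in 1 fit, limma 3.58.1 on log2(TMM-scaled TPM + 1) and leaving out each library. Deviations from group means of same-numbered libraries correlated at 0.281, 0.536 and 0.637 in experiment 1, so those libraries were taken as pairs. The highest correlation between differently numbered libraries there was 0.143. The pairing is read from the data, not from the labels. Promoters were the 250 bases before the TAIR10.1 gene start. The members, lists and tests were chosen with earlier results of these data known. Named were all members, HIRA, FAS2, WRKY60, ICS1, EDS1, PR1, PAD3, FRK1 and SAG12. From each list up to 4 called genes with the smallest adjusted p, from the other WRKY genes up to 5 rises and 5 falls, and the 5 genes most like the members could be named. CRK36, BAP1 and the neighbours of members are included, and MPK3, MPK6, HDA19, AT2G38480, AT4G23800 and AT1G80850 were named after their values were seen.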

Additional observations from a re-analysis of the deposited data

How the results depend on the processing

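In fas2-4, 3 members were called, and the count was 3 with RLE scaling, no filter, length correction and limma on TMM-scaled TPM, 7 with DESeq2, 2 in the fit of all 12 libraries (WRKY46 and WRKY75, with WRKY38 at +2.11 and adjusted p = 0.105) and 0 against a 2-fold minimum. Leaving out 1 library gave 1 to 7. In the libraries labelled hira-1 the count was 0, and it was 1 with DESeq2, 2 in the fit of all 12 libraries (WRKY46 and WRKY62), and 0 to 2 with 1 library left out. The difference of the effects gave 0 to 2 and the wild-type comparison 1 to 2 when a library was left out, and the wild-type comparison gave 0 against a 2-fold minimum.

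With the replicate block, 3 members were called in the libraries labelled hira-1, and 3 with block and length correction, against 0 without. In experiment 2 the numbers share no deviation (correlations -0.066, 0.163 and 0.006), and the block there called 2 members, WRKY75 having +2.07 (adjusted p = 0.124), or 4 with the length correction. In the difference of the effects the block, added after seeing the data, gave 3 members in experiment 1 alone and 2 in each experiment, against 0 without, and 6392 and 6461 of all genes.

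Signs turned for members that were not called. WRKY54 in the libraries labelled hira-1 had -0.07 with length correction and -0.031 with block and length correction, and ranged from -0.967 to 1.109 with 1 library left out, where WRKY40 ranged from -0.533 to 0.538. In the difference of effects WRKY38 ranged from -0.476 to 1.977 and WRKY54 from -0.745 to 1.267. Between wild-type groups WRKY75, at -0.004, had 0.007 with RLE, 0.01 without the filter, 0.008 with DESeq2 and 0.044 with length correction. There, leave-one-out ranges were -0.448 to 0.408 for WRKY75, -1.096 to 0.61 for WRKY38 and -0.44 to 0.987 for WRKY54. The cause was not tested.

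Over all genes, fas2-4 gave 1948 calls (1356 higher, 592 lower), 2980 with DESeq2 (1745 and 1235), 3343 with length correction (1908 and 1435), 3123 with block and length correction, 1117 in the fit of all 12 libraries, 158 against a 2-fold minimum and 643 to 5661 with 1 library left out. The libraries labelled hira-1 gave 2575, and 4502, 9593 with the block, 7205 with block and length correction, 5999 in the fit of all libraries, 23 against a 2-fold minimum and 19 to 5021 with 1 left out. The other WRKY genes called in fas2-4 were 8 with the block and 1 against a 2-fold minimum.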

Other observations

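Between the wild-type groups, most tested genes of leaf ageing were lower in Col-0 of experiment 2 than in Col-0 of experiment 1, where WRKY53 and WRKY70 were also lower. Of 6 tested senescence genes 5 were lower and 0 higher, with a median log2 fold change of -2.48. Of 11 tested touch response genes 3 (27.3%) were lower, 0 higher and 8 not called. The touch list summed to 348, 298 and 392 CPM in Col-0 of experiment 2, against 338, 942 and 386 CPM in Col-0 of experiment 1, where replicate 2 stood far above the other libraries. The MAP kinase genes MPK3 (-0.78, adjusted p = 0.0213) and MKK1 (-0.82, adjusted p = 0.0205) were lower and MKK4 was higher (+1.18, adjusted p = 0.0258). Of 22 salicylic acid genes 5 were lower and 0 higher. In that comparison 24.4% of all genes tested were called, with a median over all genes of +0.01.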
